A study of Mus musculus with 37 samples.

Results

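The sham mice of this study give a picture of the cortical astrocyte 4 months after a first surgery without a brain injury. They are 5 mice, named 8_15, 8_16, 9_9, 9_10 and 9_11 in the sample labels, and each gave a library from the ipsilateral and a library from the contralateral cortex, so that 10 of the 37 samples of the series are described here. Members were taken by their label alone. The other mice of the series received a unilateral controlled cortical impact and were sorted into those with seizures (PTE+) and those without (PTE-), and the 9 PTE- mice with both hemispheres (18 samples) serve below to test whether a sham difference differed from that of injured mice. For some genes the levels of all 12 injured mice with both hemispheres, PTE- and PTE+, are given beside the sham levels. Sham mice received a craniectomy without an impact and, in a later operation, recording electrodes. The methods describe the craniectomy over the right parietal bone, so ipsilateral is read here as the right side. An effect of the craniectomy and a left-right difference therefore cannot be told apart. Electrodes were placed on both sides of the midline, so both hemispheres were operated on and these are not naive animals. The genotype field of the labels reads WT CD31 Sham, the methods name male CD1 mice, and no allele or transgene is given. Cells were freed with papain and held on magnetic beads against ACSA-2, an epitope of the sodium pump subunit encoded by Atp1b2, and RNA was amplified from very small inputs.

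Astrocytes tile the cortex, take up glutamate and potassium released by neurons, wrap blood vessels with endfeet rich in aquaporin-4, and supply neurons with lactate, cholesterol and lipoproteins. Cells of this kind are known for a high output of apolipoprotein E, glutamine synthetase and connexin 43, and for a switch to a reactive state with more intermediate filament protein after damage. Dissociation of brain tissue is known to induce immediate early and heat shock genes, and a bead selection also carries over some cells of other types.

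Expression was given as TPM, the length-corrected share of each gene in a library scaled to 1 fixed total, so levels can be compared between genes. Read depth cannot be recovered from such values, and a low value carries a counting error of unknown size. Between 15622 and 17523 of 21975 listed genes were above 0 in a library, and 14260 were above 0 in all 10. The mean was above 1 TPM for 13394 genes and above 100 TPM for 1725. Genes encoded by mitochondrial DNA took between 1.80% (ipsilateral 9_11) and 10.2% (contralateral 9_10) of a library. Over the 10601 genes tested between hemispheres, whose mean exceeded 5 TPM on either side, the correlation of log2(TPM + 1) between sham libraries ran from 0.877 to 0.985, and for 8 of 10 libraries the closest other library was the other hemisphere of the same mouse. Nothing in the sources used here says whether the hemispheres of a mouse were dissociated and prepared together, so the animal and its handling session cannot be told apart.

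The baseline was led by secreted proteins of astrocytes. Apoe (ENSMUSG00000002985, GRCm38 chr7:19696109-19699188), the main lipid carrier of the brain, had a mean of 54305 ± 5692 TPM (SD, n = 5 mice) and was the highest gene in each of the 10 libraries. Its values were 58329, 58494, 52244, 59754 and 55042 TPM in the ipsilateral and 62824, 61348, 51144, 43795 and 40077 TPM in the contralateral libraries of mice 8_15, 8_16, 9_9, 9_10 and 9_11, an order of mice kept for every list of 5 values below. The hemispheres overlapped, and Apoe alone took 5.43% of all TPM. Cst3 (chr2:148871722-148875692), which encodes the protease inhibitor cystatin C, followed with 26497 ± 7853 TPM. Cst3 was highest in mouse 8_16, with 37868 and 41826 TPM in its 2 libraries against 19340 to 28858 TPM in the other 8.

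Of the 25 genes with the highest mean, 18 were nuclear and 7 mitochondrial, and together they held 22.4% of all TPM. Among the nuclear genes, Aldoc (9988 ± 1135 TPM), the glycolytic aldolase C used as an astrocyte marker, Ckb (9819 ± 1010), the brain creatine kinase, and Clu (9413 ± 803), the secreted chaperone clusterin, were too close to be put in order, since they differed by less than their SD over mice. The metallothionein gene Mt1 (6516 ± 1216), the phagocytosis bridge Mfge8 (6094 ± 1060), the prohormone-cleaving enzyme gene Cpe (5257 ± 1618), the peroxiredoxin Prdx6 (5254 ± 594), the ferritin heavy chain Fth1 (4999 ± 1692) and the glutathione transferase Gstm1 (4449 ± 683) came next. Of the receptors, the orphan receptor Gpr37l1 (4440 ± 753) and the neurotensin receptor Ntsr2 (4348 ± 574) were within the 25. Gapdh, the glycolytic enzyme used as a reference in quantitative PCR, had 4131 ± 304 TPM and ranked 21, followed by Sparcl1 (3875 ± 345), which encodes the synapse-organising protein hevin, Tspan7 (3729 ± 218), Ldhb (3230 ± 313) and the polyubiquitin gene Ubb (3196 ± 413). The mitochondrial members were mt-Co3, mt-Atp6, mt-Atp8, mt-Co2, mt-Co1, mt-Cytb and mt-Nd1, subunits of the respiratory chain and of ATP synthase, with means from 4558 to 13503 TPM. Each of these 7 was lowest in the ipsilateral library of 9_11.

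**Figure D1:**
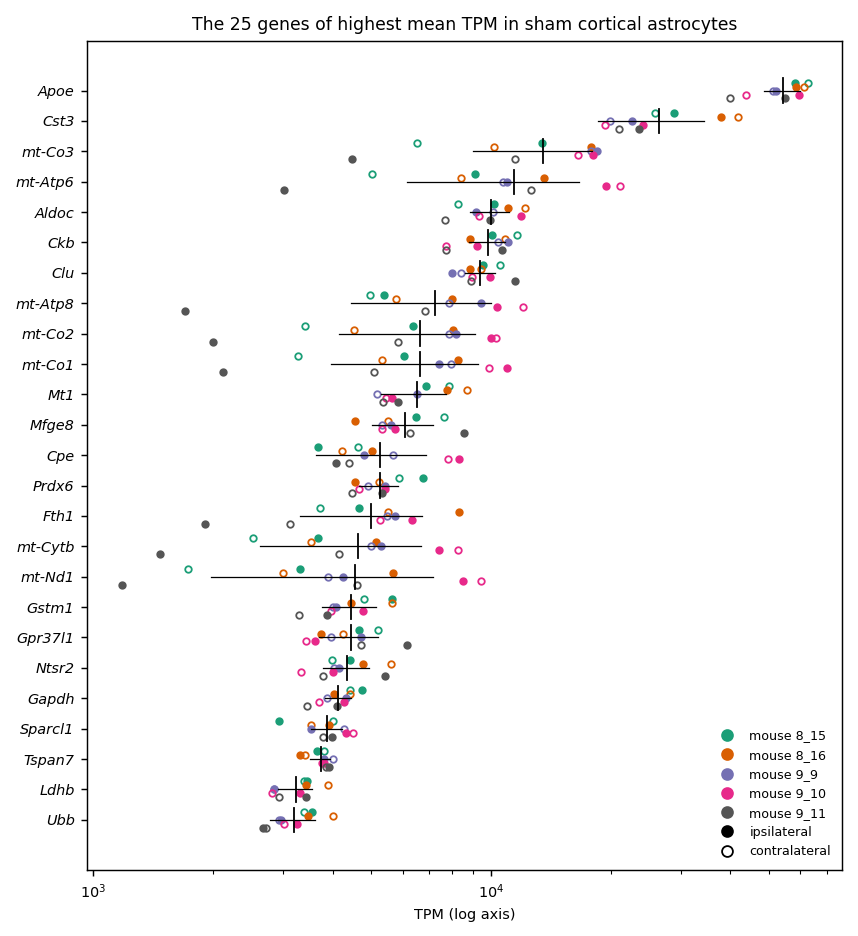
TPM on a log axis of the 25 genes of highest mean in sham cortical astrocytes, with filled points for ipsilateral and open points for contralateral libraries, coloured by mouse, a vertical bar at the mean and a horizontal bar of 1 SD over 5 mice. Apoe stands to the right of all others in every library, and the 7 mitochondrial genes spread widely, down to 1177 TPM for mt-Nd1 in ipsilateral 9_11.

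The ranking was nearly the same in both hemispheres. All 25 genes were within the first 25 by the ipsilateral mean and 24 of them by the contralateral mean, and all 25 were within the first 100 in every library. Over the genes tested, Spearman's correlation of the ipsilateral and contralateral means was 0.989, given as a description across genes, which are not independent. No gene of the 25 was called between hemispheres, and 5 of them (Cst3, mt-Co1, Cpe, Fth1 and mt-Cytb) differed between mice at a Benjamini-Hochberg adjusted p under 0.05 in limma. The gene just outside the list, Ptgds, a prostaglandin D synthase made by meninges and oligodendrocytes, varied widely, from 551 TPM (ipsilateral 9_10) to 5570 TPM (ipsilateral 8_16), and is named here after its values were seen.

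The least variable of the genes above 100 TPM were led by Map1lc3b, which encodes the autophagy protein LC3B. Its values were 346, 359, 346, 342 and 331 TPM in the ipsilateral and 351, 369, 356, 340 and 353 TPM in the contralateral libraries. The chaperonin subunit Cct8 had 128 to 140.2 TPM, and the other genes of the 10 with the smallest SD were Rnf181, Rnps1, Tmem9b, Snx17, Capzb, Aamp, Tspan7 and Ppp1cc. Their SD on the log2 scale ran from 0.044 to 0.086 over 10 libraries, against a median of 0.37 over all genes tested between hemispheres. They were chosen for this, so their evenness is a description. In the 12 injured mice with both hemispheres, mean TPM per mouse ran from 326 to 429 for Map1lc3b and from 113 to 174 for Cct8.

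The cells carried the defining markers of cortical astrocytes. All 16 astrocyte markers had a mean above 1 TPM. So did all 13 oligodendrocyte markers, all 13 microglia markers and 13394 of all 21975 genes, so this count does not separate cell types. The sum of the astrocyte markers lay between 22436 and 29476 TPM in the 10 libraries. The glutamine synthetase gene Glul had 2258 ± 210 TPM (SD, n = 5), the glutamate transporter Slc1a3 had 2165 ± 542, the connexin 43 gene Gja1 2025 ± 675, the other glutamate transporter Slc1a2 544 ± 121 and the water channel Aqp4 588 ± 133. Gfap, the intermediate filament gene that rises in reactive astrocytes, had 302 ± 69.2 TPM and ranked 471. Its ipsilateral values were 188, 235, 245, 373 and 324 TPM and its contralateral values 440, 174, 444, 389 and 204 TPM, which overlap, and the difference of -0.21 ± 0.24 (SE, log2) had an unadjusted p of 0.403 in limma. Mlc1, which encodes a membrane protein of astrocyte endfeet, varied little, with 942 ± 43.6 TPM. Of the regional genes, the forebrain transcription factor Lhx2 was present (215 ± 42.5 TPM), while 7 of 10 genes of a list for other brain regions, among them the factors En1, Hoxb3 and Hoxb5, averaged under 1 TPM. The list summed to between 280 and 880 TPM, nearly all of it from Agt, the gene of angiotensinogen, a secreted protein of astrocytes known to be higher outside the forebrain, which had 522 ± 170 TPM and ranked 248.

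Transcripts of other cell types were present at lower summed levels. The sum over 13 oligodendrocyte markers ran from 524 TPM (ipsilateral 9_11) to 4469 TPM (ipsilateral 9_10), with the myelin basic protein gene Mbp alone between 124 and 3484 TPM. Erythrocyte markers, mainly globins, summed to between 507 TPM and, in ipsilateral 9_10, 12624 TPM. Endothelial markers summed to between 472 and 2213 TPM, mural markers to between 940.1 and 2612 TPM, microglia markers to between 127 and 962 TPM and neuronal markers to between 154 and 913 TPM. The integrin gene Itgam, used to mark microglia, was between 0.14 and 8.86 TPM, and Rbfox3, which encodes the neuronal protein NeuN, between 6.33 and 45.0 TPM. Border macrophage markers (5.22 to 14.2 TPM in all) and choroid plexus markers (5.05 to 66.7 TPM) had the lowest sums. In such bulk samples, more cells of a type and more RNA per cell cannot be told apart.

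**Figure D2:**
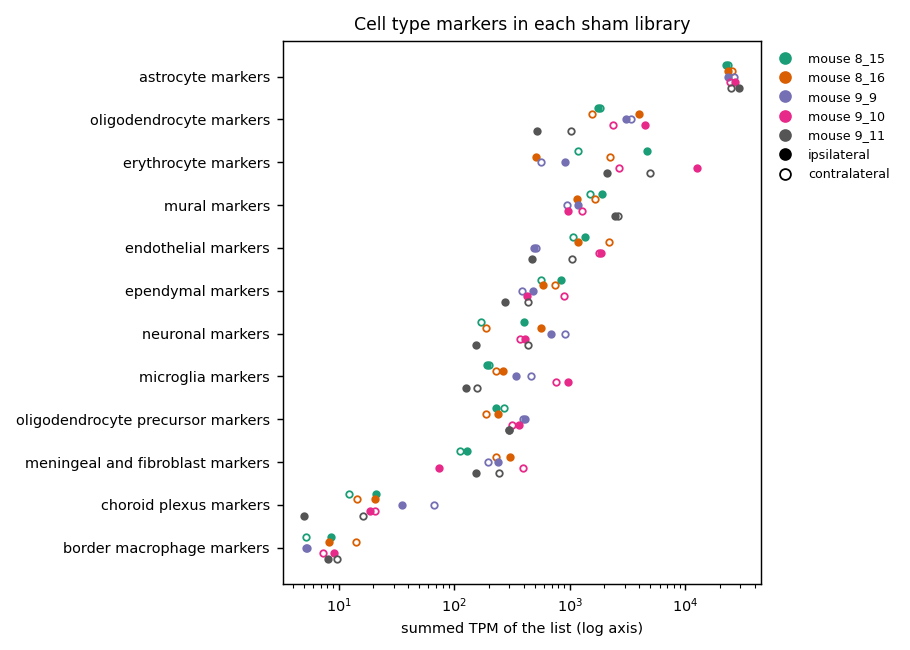
Summed TPM of 12 lists of cell type markers in each sham library on a log axis, with filled points for ipsilateral and open points for contralateral libraries, coloured by mouse. Astrocyte markers lie together between 22436 and 29476 TPM, while erythrocyte markers run from 507 to 12624 TPM.

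The first comparison asked whether the hemispheres of a sham mouse differ. The difference was taken within each mouse, and a gene was called at an unadjusted p under 0.05 in limma with a fold of at least 1.2, the thresholds of the study. Of 10601 genes, 732 were called (6.91%), 41 higher (0.387%) and 691 lower (6.52%) on the ipsilateral side. No gene passed at a Benjamini-Hochberg adjusted p under 0.05, the smallest adjusted p was 0.673, and 762 genes had an unadjusted p under 0.05. Each gene named below has therefore failed the correction for multiple tests. A mean above 5 TPM on 1 side was enough to be tested, so a low gene could enter through the side where it was high. A sign-flip test over 5 pairs cannot give an exact two-sided p below 0.063, which every gene with the same sign in all 5 mice reaches.

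The direction of the calls depended on the scale. The median log2 difference over the tested genes was -0.09, and the median level was lower on the ipsilateral side in 5 of 5 mice. When each library was centred on its median, the median difference moved by 0.12 to 0.03, and 315 of 527 called genes were then higher ipsilaterally. With quantile normalization it was 206 of 452. Differences below are given beside this median of -0.09 for all genes. The hemispheres of a mouse resembled each other, and without the pairing by mouse only 126 genes were called, 8 of them higher. Without mouse 9_10 there were 339 calls and without mouse 8_15 there were 470.

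Among the genes that were lower ipsilaterally in all 5 mice, several are known from the coverings of the brain and from vessels. Msln (chr17:25748613-25754378), which encodes mesothelin, a surface protein of mesothelial cells, passed the filter on low values through mouse 8_16 and was not tested without it, and the same held for Prg4. Both genes passed only through their contralateral mean, the side where they were higher, so their entry was not independent of the direction given here. Msln had ipsilateral values of 3.63, 5.37, 0.68, 0.50 and 1.43 TPM and contralateral values of 5.22, 19.98, 2.36, 2.91 and 8 TPM. Each mouse was lower on the ipsilateral side, although the 2 sets overlap, and the difference was -1.28 ± 0.27 (SE, log2; unadjusted p = 0.000692 and adjusted p = 0.673 in limma). Prg4, the gene of the lubricant lubricin and a meningeal marker here, had 0.55, 5.71, 0.10, 0 and 0.15 TPM against 0.70, 14.3, 0.37, 8.03 and 2.01 TPM, a difference of -1.24 ± 0.43. The complement decay-accelerating factor Cd55 differed by -1.24 ± 0.28, from 0.60 to 7.42 TPM ipsilaterally and 2.59 to 11.8 contralaterally. Abcb1a, the drug efflux pump of brain endothelium, had 6.30, 5.55, 1.97, 8.32 and 3.02 TPM against 7.61, 9.71, 6.62, 19.1 and 9.71 TPM, a difference of -0.97 ± 0.22. The collagen receptor gene Ddr2 differed by -1.04 ± 0.32. All of these genes are low in these libraries, with a mean of 7.79 TPM or less.

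The other genes of this group came from several functions. Called genes without 1 sign in all 5 mice are left out, among them larger differences such as Gm17571 (-4.72 ± 1.23). Gm20390 (-1.41 ± 0.37), a predicted gene, and the histone gene Hist1h2bk (-1.18 ± 0.39) had their largest contralateral values, 48.6 and 55.7 TPM, in 8_15. Histone genes have near-identical copies, so the reads of Hist1h2bk may be split among them. Lars2, the mitochondrial leucyl-tRNA synthetase, was the only abundant one, with 261, 158, 202, 40.3 and 920 TPM ipsilaterally and 433, 184, 938, 191 and 1292 TPM contralaterally, a difference of -1.17 ± 0.28. Its mouse means spread from 116 TPM in 9_10 to 1106 TPM in 9_11, wider than its hemispheres. The amino acid transporter Slc38a2 (-1.09 ± 0.36) and the bicarbonate transporter Slc4a10 (-1.09 ± 0.48) were most extreme in mouse 9_10, in which Slc38a2 had 5.50 TPM ipsilaterally and 60.6 TPM contralaterally and Slc4a10 had 0.40 and 17.6 TPM. Slc4a10 was not called without 9_11, after median centring or with quantile normalization. It passed the filter on low values only through its contralateral mean, the side where it was higher. Without 9_10, Slc38a2 stayed called, while Slc4a10, Prg4 and Ddr2 no longer had a mean above 5 TPM in either hemisphere and were not tested.

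Among called genes higher in all 5 mice, the 10 that led had smaller differences. Srrm3 (0.97 ± 0.35) and Gm11027 (0.83 ± 0.25) were called higher too, but not with 1 sign in all 5 mice. Cd164l2 (1.03 ± 0.40) had 6.77, 14.4, 6.66, 3.73 and 4.67 TPM ipsilaterally and 2.97, 0.64, 4.77, 2.85 and 3.84 TPM contralaterally, and its difference was largest in 8_16. It passed the filter on low values only through its ipsilateral mean, the side where it was higher. The cytosolic glycosidase Engase (0.71 ± 0.21) was 18.1, 11.98, 9.24, 10.6 and 14.3 TPM against 10.98, 3.87, 8.89, 4.67 and 10.7 TPM. The lysine methyltransferase Eef1akmt4 (0.69 ± 0.20), the zinc finger gene Zkscan6 (0.60 ± 0.19), the amino acid transporter Slc7a7 (0.58 ± 0.23), Lrmda (0.54 ± 0.20), Tmem121 (0.38 ± 0.15) and the zinc finger gene Gm4724 (0.35 ± 0.12) followed. Gm4724 lies in a cluster of near-identical zinc finger genes, so its reads may be split. Ndufaf8 and Timm10, which serve complex I assembly and import into mitochondria, were the abundant members of the set, at 153 ± 47.7 and 81.1 ± 8.90 TPM. Ndufaf8 had 175, 204, 181, 221 and 86.1 TPM against 93.2, 174, 170.0, 156 and 69.5 TPM, a difference of 0.40 ± 0.13. With mouse 8_15 left out Cd164l2, Lrmda and Timm10 lost their calls, with 8_16 Cd164l2, Slc7a7 and Tmem121, with 9_9 Lrmda, with 9_10 Timm10, Gm4724 and Tmem121, and with 9_11 Slc7a7 and Tmem121. Slc7a7 was not tested without 8_15 or 9_10.

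**Figure D3:**
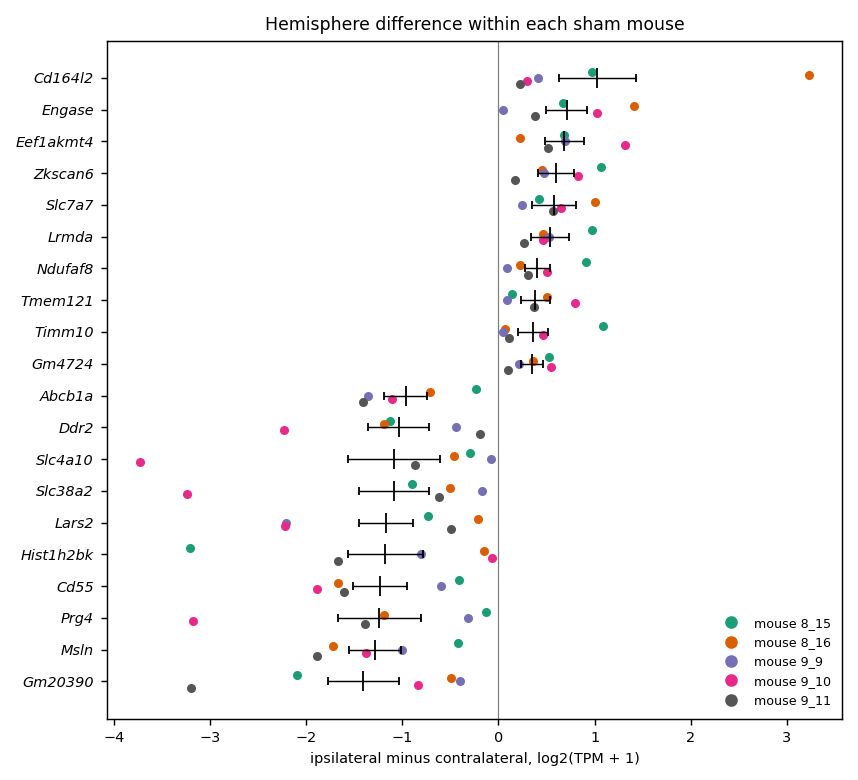
Ipsilateral minus contralateral difference of log2(TPM + 1) in each of 5 sham mice for the 20 called genes with the largest differences of 1 sign in all mice, with the mean and its SE in limma in black. The 10 upper genes lie above 0 and the 10 lower genes below 0 in each mouse, as their choice requires, and 9_10 gives the extreme values of Slc4a10 and Slc38a2.

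The smallest unadjusted p of all genes belonged to Vim, which encodes vimentin, an intermediate filament of reactive astrocytes, vessels and meninges. Vim had 82.4, 75.9, 69.7, 94.0 and 42.7 TPM ipsilaterally and 125, 111, 85.3, 153 and 61.3 TPM contralaterally, a fold of 1.44 to the contralateral side. The difference was -0.53 ± 0.11 (unadjusted p = 0.000428, adjusted p = 0.673, limma), lower in 5 of 5 mice. It was below the median of all genes under median centring (-0.41) and quantile normalization (-0.48) too. In the 9 PTE- mice the Vim difference was 0.59 ± 0.71 (SD), higher ipsilaterally in 8, and the sham and PTE- differences lay apart at an unadjusted p of 0.00098 but not after correction (adjusted p = 0.475, limma). Vim is described here for its small p in the same sham values, so this second p is not independent of that choice. Gfap, its partner in the filament, was not called in sham mice, as given above.

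Of 240 tested genes in 29 lists of cell type, pathway and response genes, 17 were called lower and 0 higher ipsilaterally, which is 7.08% and close to the 6.91% over all genes. The 17 fell into 9 lists, and 20 lists had no call. No astrocyte marker of 16, no gene of 7 for glutamate uptake and no gene of 10 for potassium, water and endfeet was called. Among the vascular lists, 3 of 10 endothelial markers were called lower, Flt1 (-0.50 ± 0.15) and Kdr (-0.62 ± 0.20), which encode receptors for VEGF, and Vwf (-0.78 ± 0.23), the gene of von Willebrand factor. Of 8 mural markers, 3 were called lower: Acta2 (-0.49 ± 0.15), with 53.8, 48.3, 30.7, 119.9 and 14.8 TPM against 57.4, 80.3, 37.3, 152 and 31.5 TPM, Tagln (-0.51 ± 0.15) and Rgs5 (-0.47 ± 0.18). The median difference was -0.40 for endothelial, -0.29 for mural and -0.54 for 11 meningeal and fibroblast markers, of which Prg4 alone was called, against -0.09 for all genes. Without 9_10 these medians were -0.47, 0.04 and 0.03. Other lists lay as low, with a median of -0.49 for 7 ependymal and -0.42 for 2 choroid plexus markers, of which 0 were called. Without 9_10 those 2 medians were -0.26 and -0.41. Without the pairing by mouse none of these list members was called. The summed endothelial level was lower ipsilaterally in 3 of 5 mice and the summed meningeal level in 2 of 5. The part of these cells in the differences of Msln, Cd55 and Abcb1a was not tested.

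The remaining called members came from lists of gap junction, energy metabolism, transcription factor, patterning, reactive and immediate early genes. Gjb2, which encodes connexin 26, had 12.9, 14.4, 19.7, 5.41 and 16.7 TPM against 17.3, 16.2, 28.8, 21.0 and 22.1 TPM, a difference of -0.65 ± 0.22, and stayed called without the pairing. The lactate and ketone transporter Slc16a1 had 42.6, 28.02, 42.0, 52.0 and 75.2 TPM against 56.6, 37.3, 52.3, 61.7 and 92.6 TPM. Its difference of -0.33 ± 0.11 was nearly equal in all 5 mice, from -0.24 to -0.40, but was not called after median centring (-0.21). Of 13 astrocyte transcription factors, Nfib (-0.41 ± 0.14), Id4 (-0.42 ± 0.15) and Rorb (-0.36 ± 0.14) were called lower, each in 4 of 5 mice, and none of the 3 stayed called after median centring. Emx2, a forebrain patterning factor, was lower in 5 of 5 mice (-0.50 ± 0.17). The protease inhibitor Timp1 (-1.19 ± 0.49), from 0 to 17.97 TPM ipsilaterally and 0.48 to 37.4 TPM contralaterally, was lower in only 3 of 5, and the injury-response factors Atf3 (-0.69 ± 0.30) and Klf4 (-0.54 ± 0.23) in 5 of 5. Timp1, Atf3, Klf4 and Id4 were not called without 9_10, nor Timp1, Klf4, Nfib and Id4 without 8_15, nor Emx2 and Klf4 without 9_11, nor Rorb without 8_16 or 9_9, and Timp1, Atf3 and Klf4 were not tested without 8_16. Emx2 stayed called without the pairing. Atf3, Klf4 and Rgs5 lost their calls after median centring and with quantile normalization. Timp1, Vwf, Slc16a1 and Rorb lost theirs with quantile normalization. Rgs5 was not called without 8_16, 9_10 or 9_11.

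The sham difference was then set against that of injured mice without epilepsy. Over 10716 genes the within-mouse difference differed between sham and PTE- mice for 706 genes (6.59%) at the same thresholds, and for 0 at an adjusted p under 0.05 (743 at an unadjusted p under 0.05, limma). Of the 691 genes called lower in sham mice, 511 (74.0%) were lower ipsilaterally in the mean of the 9 PTE- mice as well, against 52.1% of all tested genes, and of the 41 called higher 26 (63.4%) were higher, against 47.9%. The sizes were smaller, with a median of -0.45 in sham and -0.09 in PTE- mice for the lower and 0.37 and 0.04 for the higher genes. The sham medians were fixed by the choice of genes. Of the 10 genes named above as largest among those lower in every sham mouse, 4 were lower and 6 higher ipsilaterally in PTE- mice. Their median was 0.05 in PTE- mice against -1.18 in sham mice. Slc4a10 differed most among the named genes, at -1.09 in sham mice and 1.01 in PTE- mice, where it was higher ipsilaterally in 9 of 9. Sham mouse 9_10 gave -3.73, and the sham hemisphere difference of Slc4a10 was not tested without that mouse. All 10 genes were chosen for their sham differences, so these contrasts with PTE- mice are not independent of that choice.

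The next comparison asked which genes differed between the 5 sham mice. The range of the mouse means of log2(TPM + 1) had a median of 0.84 over the genes tested. Tested against the spread left between hemispheres, 3096 of 11454 genes (27.0%) differed between mice at a Benjamini-Hochberg adjusted p under 0.05 in limma, and 5475 had an unadjusted p under 0.05. The number was 1903 without 9_10 and 1327 without 9_11. The hemispheres of a mouse are 2 libraries from 1 animal, so the test sets differences between mice, handling sessions included, against the spread of sides within a mouse. The name prefixes 8 and 9 are not explained in the labels. How many of all genes were highest or lowest in each mouse was not counted, so all counts of that kind below lack this share.

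The genes with the largest ranges were high in 1 mouse or a few. S100a5 (chr3:90608523-90611780), a calcium-binding protein gene known from olfactory neurons, was listed at 0 in 8 libraries and had 86.5 TPM in the ipsilateral and 373 TPM in the contralateral library of 9_9. Omp, the olfactory marker protein gene, had 15.03 and 97.6 TPM there and at most 0.10 TPM in the other 8 libraries. The Wnt antagonist Frzb had 62.2 and 115 TPM in 9_9 and at most 19.6 TPM elsewhere, Clca3a1 had 23.3 and 60.2 TPM against at most 4.02 TPM, and the neuropeptide gene Npy had 1474 and 2334 TPM against at most 337 TPM. The water channel gene Aqp1 had 24.5 and 55.6 TPM in 9_9 and at most 4.68 TPM in the others. All 6 genes were higher in both libraries of 9_9 than in any other sham library, S100a5 with an adjusted p of 0.00016 between mice and Npy with 0.0394 (limma). In the 12 injured mice with both hemispheres, mean S100a5 reached 169 TPM and mean Omp 47.8 TPM, with medians of 4.61 and 0.92 TPM. Mouse 9_9, with means of 229.5 and 56.3 TPM, lay above each of them. Neuronal markers were also highest in 9_9 for 7 of 9 tested, with a sum of 684 and 913 TPM, and their part in this was not tested. Without 9_9, S100a5, Omp and Clca3a1 had too low a mean to be tested, and Npy and Frzb were not past the threshold. Npy was not past it without 8_15 or 9_10 either.

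Other genes followed other mice. Prss56, a serine protease gene, had 366, 18.8, 110.2, 5.4 and 43.7 TPM ipsilaterally and 466, 10.9, 154, 4.69 and 34.8 TPM contralaterally, 82.4-fold between the highest and the lowest mouse (adjusted p = 7.86e-06, limma). Cwc22, a splicing factor, had 41.4, 8.11, 126, 270.0 and 106 TPM against 56.0, 8.04, 122, 347 and 92.5 TPM. In both genes the hemispheres of a mouse lay close together and the mice apart. Lcn2, the iron-binding lipocalin of reactive astrocytes, was 38.2 and 78.6 TPM in 8_16, 21.0 and 21.7 TPM in 9_10 and at most 1.35 TPM in the other 6 libraries. Timp1 was likewise highest in 8_16. The predicted genes Gm10718, Gm10719, Gm10721 and Gm10801 were high in the same 4 libraries, both of 9_10, ipsilateral 8_16 and contralateral 8_15, with 199, 258, 163 and 76.1 TPM in contralateral 9_10. Gm10718, Gm10719 and Gm10721 are neighbours at the start of chromosome 9 and may share reads, so their separate values are uncertain. Gm10217 (2735 TPM in ipsilateral 9_11, at most 26.3 TPM elsewhere) and Gm21961 (1971 TPM there, at most 192 TPM elsewhere) were high in 1 library. Gm10718, Gm10719, Gm10721 and Gm10801 were not past the threshold without 9_10 or 9_9, the first 3 of them also not without 9_11, and Gm10217 not without 9_11. Gm21961 stayed past it when 9_9 was left out, but not when any other mouse was.

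Some on-off genes were named after their values were seen. Tmem14c, a mitochondrial membrane protein gene needed for haem synthesis, had 61.7 and 49.3 TPM in 9_10 and 2.18 to 5.12 TPM in the other 8 libraries, while its median over the 12 injured mice was 63.0 TPM. Abhd1 showed the opposite order, with 17.6 and 22.2 TPM in 9_10 against 185 to 532 TPM. Prss22 was 11.1 to 21.3 TPM in the libraries of 8_15 and 9_11 and at most 0.34 TPM in the others, and Gm37419 was listed at 0 in all mice but 8_15 (16.4 and 10.2 TPM). Xlr3b, an X-linked gene with near-identical copies, ran from 1.38 TPM in 8_15 to 85.9 TPM in 8_16. In Tmem14c, Abhd1, Prss22 and Gm37419 the sides of a mouse fell into the same class, and all 5 genes passed the test between mice, which supports nothing further since they were picked for their pattern. Tmem14c without 9_10 and Gm37419 without 8_15 were too low to be tested.

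**Figure D4:**
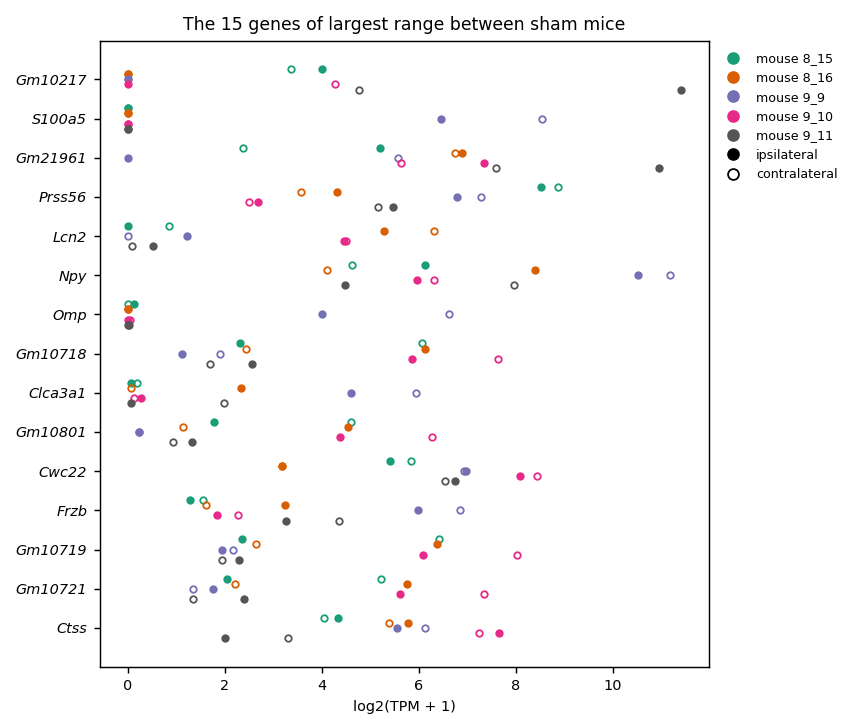
Log2(TPM + 1) of the 15 genes with the largest range between sham mice, with filled points for ipsilateral and open points for contralateral libraries, coloured by mouse. For most genes both points of a mouse lie together, as for Prss56 and Cwc22, while Gm10217 reaches 2735 TPM in 1 library of 9_11.

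Immediate early genes, whose transcripts rise within minutes of a stimulus, varied more than most groups. Of 13 tested, 12 differed between mice, against 27.0% of all genes. Their median range was 2.44 on the log2 scale against 0.84 for all genes. Fos had 283, 239, 41.0, 24.0 and 363 TPM ipsilaterally and 202, 228, 37.1, 20.4 and 455 TPM contralaterally. Mice 9_9 and 9_10 were low on both sides and the other 3 were high, without overlap, and the range was 18.4-fold (adjusted p = 7.31e-06, limma). Egr1 had 42.9, 38.0, 10.8, 8.57 and 69.7 TPM against 25.8, 30.9, 12.4, 13.5 and 119 TPM, and Junb 134, 142, 33.9, 79.3 and 203 TPM against 136, 155, 26.4, 81.8 and 262 TPM. Both were lowest in 9_9 or 9_10 and highest in 9_11. The neuronal activity gene Arc went another way and was highest in 9_9, with 67.3 and 96.0 TPM. Jund was the member that did not differ (adjusted p = 0.115). Leaving out any 1 mouse left 8 to 11 of the list called. In the injured mice Fos ran from 23.1 to 552 TPM in the means of 12 mice.

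The inducible HSP70 genes had the same low mice. Hspa1a had 51.3, 29.9, 3.98, 4.34 and 105 TPM ipsilaterally and 51.8, 124, 3.28, 4.31 and 115 TPM contralaterally, and Hspa1b had 99.8, 50.9, 6.80, 8.73 and 166 TPM against 91.4, 224, 6.90, 8.35 and 197 TPM. The 2 genes are near-identical copies and their reads cannot be assigned with certainty, so they are 1 observation. The constitutive chaperone Hspa8 ran from 533 to 973 TPM (adjusted p = 0.0236, limma). In all 5 of 10 heat shock genes differed between mice, against 27.0% of all genes. No heat shock gene and, of the immediate early genes, only Atf3 and Klf4 were called between hemispheres.

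Interferon and MHC class I genes were high in 1 mouse. All 15 differed between mice at an adjusted p under 0.05 (limma), against 27.0% of all genes, with a median range of 1.79, and 14 of the 15 were highest in mouse 9_10. The summed level was 2898 and 3021 TPM in 9_10, 1496 and 1834 TPM in 8_16 and 875 to 1157 TPM in the other 6 libraries. H2-K1, a heavy chain of MHC class I, had 227, 226, 213, 612 and 190.1 TPM ipsilaterally and 204, 255, 226, 622 and 212 TPM contralaterally. H2-D1 had 302, 402, 241, 880 and 194 TPM against 275, 498, 259, 819 and 214 TPM, and their partner B2m 264, 337, 227, 594 and 188 TPM against 233, 431, 217, 671 and 316 TPM. Stat2, a signal transducer of the pathway, was the member not led by 9_10, with 17.6 and 30.6 TPM there and 28.7 and 23.8 TPM in 9_11. Without 9_10, 4 of 14 tested were past the threshold. The MHC class II genes Cd74 and H2-Aa, named after their values were seen, followed the same mice, Cd74 with 178 and 261 TPM in 9_10, 60.7 and 117 TPM in 8_16 and 9.03 to 13.7 TPM elsewhere.

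Because these genes moved together, their promoters are shown for the letters GAAANNGAAA, which make up the core of the interferon-stimulated response element bound by STAT and IRF factors. The 250 bases before the start site were searched on both strands in RefSeq sequence of GRCm38.p6. Of 12 genes of the list with an entry, 6 held the letters, against 936 of 27025 genes (3.46%) in all. The list was drawn up as interferon and MHC class I genes, so this share is not independent of that choice. It does not bear on the levels in mouse 9_10. The other genes with an entry held no match in the window and are not shown. The matches are printed 5′ to 3′ on the strand of the gene, in capitals, with 30 bases on either side where the window allows. Overlapping matches run together in Isg15 and Bst2, and a match on the other strand reads as its reverse complement.
B2m, chr2:122147518-122147587, plus strand: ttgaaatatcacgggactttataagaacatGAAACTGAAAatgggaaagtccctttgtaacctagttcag
Isg15, chr4:156200845-156200926, minus strand: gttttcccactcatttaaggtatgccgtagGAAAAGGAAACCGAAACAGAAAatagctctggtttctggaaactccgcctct
Bst2, chr8:71537557-71537632, minus strand: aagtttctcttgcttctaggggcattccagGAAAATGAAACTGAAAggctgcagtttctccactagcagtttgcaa
Stat2, chr10:128270248-128270315, plus strand: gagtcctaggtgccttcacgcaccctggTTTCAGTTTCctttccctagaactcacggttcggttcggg
Ifit3, chr19:34583343-34583446, plus strand: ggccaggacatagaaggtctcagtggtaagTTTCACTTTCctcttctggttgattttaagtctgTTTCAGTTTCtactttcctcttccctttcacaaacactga
Ifit1, chr19:34640755-34640843, plus strand: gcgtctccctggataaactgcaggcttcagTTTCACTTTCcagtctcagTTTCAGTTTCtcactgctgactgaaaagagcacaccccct

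The genes shown had the following values. The antiviral RNA-binding protein gene Ifit1, with 2 matches, had 1.78, 4.88, 2.21, 10.2 and 2.54 TPM ipsilaterally and 2.21, 4.67, 2.16, 15.1 and 4.33 TPM contralaterally. Its relative Ifit3 had 29.4, 32.9, 30.2, 110.2 and 23.9 TPM against 25.3, 32.2, 35.5, 107 and 25.2 TPM, so that 9_10 stood alone. Isg15, an ubiquitin-like modifier with 3 matches, ran from 3.24 to 12.2 TPM outside 9_10 and had 22.4 and 25.9 TPM in it. Bst2, the virus-tethering protein tetherin, had 38.4 and 32.2 TPM in 9_10 and at most 24.3 TPM elsewhere. B2m, with a single match, moved as far as 2.85-fold between mice and Ifit1 6.35-fold. A match is a description of the sequence and not evidence of binding.

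Microglia markers were highest in the same mouse. All 13 differed between mice, against 27.0% of all genes, with a median range of 3.37. Of the 13, 12 were highest in 9_10 and 10 were lowest in 9_11. Csf1r, the growth factor receptor of microglia, had 3.64, 4.61, 14.5, 64.7 and 4.02 TPM ipsilaterally and 2.87, 6.45, 28.4, 49.9 and 4.30 TPM contralaterally. Ctss, which encodes cathepsin S, had 19.1, 53.9, 45.7, 201 and 3.03 TPM against 15.4, 41.0, 69.4, 150 and 8.89 TPM. The summed level was 962 and 765 TPM in 9_10, next highest in 9_9 with 342 and 459 TPM, and 127 to 266 TPM in the other 6. Interferon genes and microglia markers shared their highest mouse but not the next, which was 8_16 for the former and 9_9 for the latter. Endothelial markers had mean sums of 1832 TPM in 9_10, 1693 in 8_16, 1209 in 8_15, 758 in 9_11 and 503 in 9_9. The interferon sums had the same order of mice, with 2959, 1665, 1085, 995 and 985 TPM. Of 10 endothelial markers tested, 8 were highest in 9_10 and 9 lowest in 9_9. The part of microglia or endothelial cells in the interferon values was not tested. Erythrocyte markers were highest in 9_10 as well for 5 of 5 genes, of which 0 passed the test between mice.

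Genes of the astrocyte itself also differed between mice, with smaller ranges. Over the genes tested between hemispheres, the median log2(TPM + 1) was highest in both libraries of 9_11 (4.97 and 4.99). It was lowest in both libraries of 8_16 (4.47 and 4.55). As said above, counts of genes highest or lowest in a mouse lack a share over all genes. The counts below of genes past the threshold stand against 27.0% of all genes in the main setting. All 11 genes of cholesterol synthesis differed (median range 1.25), 10 were lowest in 8_16 and 10 highest in 9_11. Msmo1, which encodes a sterol oxidase of the pathway, had 1005, 482, 820, 600 and 1246 TPM ipsilaterally against 1114, 664, 735, 730 and 1360 TPM contralaterally. After median centring 6 of the 11 were past the threshold. Potassium, water and endfoot genes were led by the same mouse, with 7 of 10 past the threshold, 9 lowest in 8_16 and 7 highest in 9_11. Without 9_11 it was 4 of 10. Atp1b2, which carries the antigen used to isolate the cells, had 677, 366, 748, 427 and 1146 TPM in the means of the 5 mice and differed between them (adjusted p = 0.00989). Of 16 astrocyte markers, 10 differed between mice, and 4 did after median centring or without 9_10.

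Of 11 circadian clock genes, 9 differed between mice, against 27.0% of all genes, and 9 were highest in 9_11. Dbp, an output gene of the clock, had 379, 309, 284, 500.2 and 592 TPM against 492, 397, 240.2, 556 and 557 TPM, and the repressor Nr1d1 227, 126, 188, 243 and 398 TPM against 247, 174, 183, 294 and 337 TPM. Without 9_11 the number was 4 of 10 tested, and without 9_9 or after median centring 6 of 11. Metal and antioxidant genes had the opposite high mouse, with 9 of 11 highest in 8_16 and 5 past the threshold, against the same 27.0% of all genes. Mitochondrial genes were lowest in 9_11 in 13 of 13 and highest in 9_10 in 12 of 13, and 4 of 13 passed the test, near the 27.0% of all genes. Without 9_11 it was 10 of 13, without 9_10 it was 0, and without 8_15 or 9_9 it was 2. Their share was 1.80% of the ipsilateral and 5.83% of the contralateral library of 9_11. The ipsilateral library of 9_11 was the lowest in this share, while its contralateral library lay above those of 8_15 (3.17%) and 8_16 (4.54%). Mouse 9_11 was also lowest for 11 of 12 oligodendrocyte and 10 of 13 microglia markers. It was high in cholesterol, endfoot and clock transcripts, but the median over all tested genes was also highest in its libraries.

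**Figure D5:**
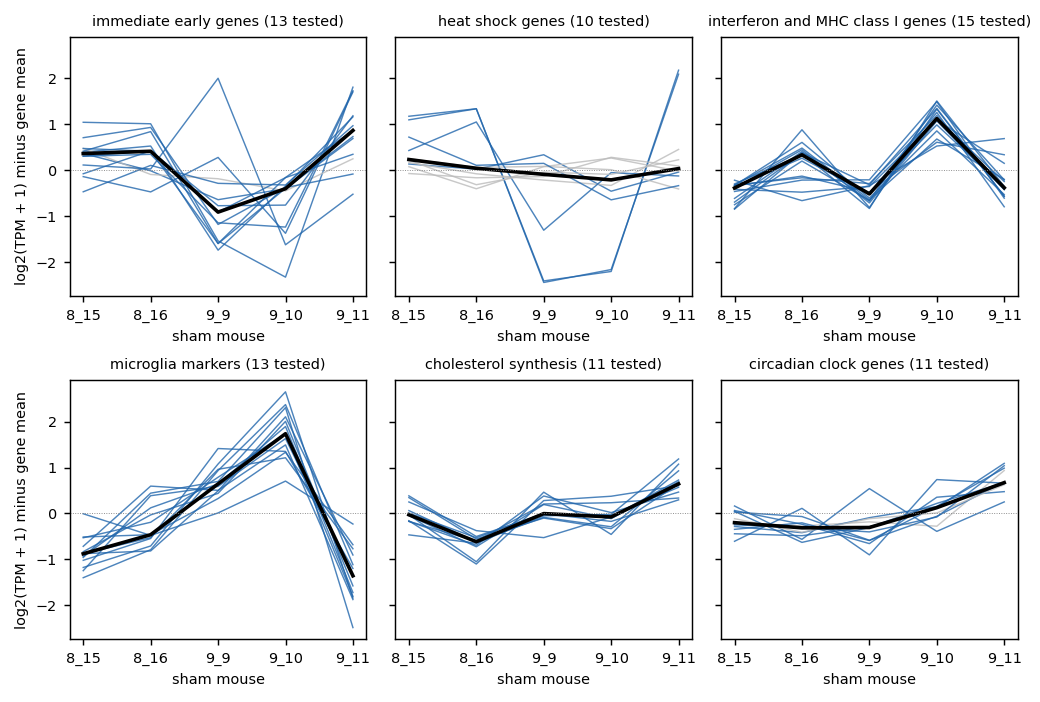
Mean log2(TPM + 1) of each gene in each sham mouse, minus its mean over the 5 mice, for 6 gene lists, with blue lines for genes past the threshold between mice, grey lines for the others and a black line for the median of the list. Lines join the values of a gene and the mice have no order, and 9_10 is highest for 14 of 15 interferon and MHC class I genes and 12 of 13 microglia markers.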

How the data were processed

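Cortical astrocytes of 5 sham mice, taken with ACSA-2 MicroBeads from both hemispheres at 4 months, were sequenced by the authors after SMART-Seq v4 amplification. Per the labels and methods, reads were trimmed (Trim Galore 0.6.4), mapped to mm10 (Bowtie2 2.4.1) and quantified with RSEM 1.2.28, and the authors deposited TPM per Ensembl gene, 1 table a hemisphere. The authors' DESeq2 1.36.0 tests used counts not analysed here. The annotation release is not given in the sources used here. Positions and symbols (21856 of 21975 identifiers) came from an annotation of GRCm38, the build of mm10.

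TPM hold no depth, so no interval from counting could be given. Values were compared as log2(TPM + 1) with limma 3.58.1 (R 4.3.3, variance trend). This understates the change of low genes. Hemispheres were compared with a term per mouse, mice with a term for hemisphere (F test), and sham with PTE- mice on within-mouse differences. Genes needed a mean above 5 TPM in at least 1 hemisphere (or, between mice, 1 mouse). Pairing was given by the mouse names in the labels, and the correlation of the deviations of a mouse's 2 libraries from their hemisphere means was 0.328 to 0.679 over 10601 genes. Samples of a group were separate animals, but shared handling is not stated.

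Genes named were the 25 of highest mean, up to 3 of highest mean and the called members of each list, the study's verification genes with Gapdh and Atp1b2, the 10 largest differences in each direction with 1 sign in 5 of 5 mice, the 15 largest ranges between mice and the 10 smallest SDs above 100 TPM. Others are marked as named after their values were seen. The mice, the 29 lists and the tests were chosen with earlier results of these data known. Alternatives were a pseudocount of 0.1, no filter or 1 TPM, quantile normalization, median centring, no trend, array weights, other folds (none, 1.5), no pairing, each name prefix alone and each mouse left out. The fits were tested on simulated data. Tables were made in Python 3.11.15 (pandas 2.3.3, numpy 2.4.6), exact tests with scipy 1.17.1, and plots with matplotlib 3.10.9.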

Additional observations from a re-analysis of the deposited data

Results flagged for a closer look

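In 7 of 99 sets of 5 sham mice, 1 mouse stood apart from the others by Dixon's test, which flags about 1 in 20 sets by chance. All but Prdx6 of these were genes chosen for large ranges between mice or large hemisphere differences, so their standing apart partly restates the choice. Mouse 8_15 was highest for Prdx6 (6297 TPM, the others 4880 to 5158 TPM), a peroxiredoxin. Mouse 9_9 was highest for S100a5 (229.5 TPM), Omp (56.3 TPM) and Clca3a1 (41.8 TPM). The hemisphere difference of Cd164l2 was 3.23 on the log2 scale in 8_16, and those of Slc38a2 and Slc4a10 were -3.25 and -3.73 in 9_10.

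Of the 20 genes with the largest sham differences between hemispheres, 11 differed in that difference from the PTE- mice at an unadjusted p under 0.05 and a fold of at least 1.2 (limma), and 0 at an adjusted p under 0.05. These genes were chosen for a large sham difference, so the comparison is not independent of the choice. Sham minus PTE- was 0.60 for Engase, 0.61 for Eef1akmt4, 0.63 for Zkscan6 and 0.42 for Gm4724. It was -1.37 for Msln, -1.53 for Prg4, -1.61 for Cd55, -1.48 for Slc38a2, -2.10 for Slc4a10, -1.06 for Ddr2 and -0.77 for Abcb1a.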

How the results depend on the processing

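The 732 genes called between hemispheres were 452 with quantile normalization, 144 at a fold of 1.5 and 339 to 923 with 1 mouse left out, and without the pairing by mouse (no replicate block) 126. At an adjusted p under 0.05 there were 104 with the 2 mice of prefix 8 alone and 0 to 1 with 1 mouse left out. Of 20 named genes, 11 kept their call without the pairing. The 3096 genes between mice were 218 with no filter, 1803 with quantile normalization, 1815 with no variance trend and 1327 to 2585 with 1 mouse left out. The 706 genes that differed from PTE- mice were 1165 with no filter, 284 at a fold of 1.5 and 392 to 991 with 1 sham mouse left out. The causes were not tested. No sign of the 20 named hemisphere genes turned under these alternatives, and the signs of other named genes were not counted. Between 24 and 25 of the 25 highest genes stayed so under each choice of libraries. Without mitochondrial genes, 17 of the 18 nuclear ones were counted as the same and 1 as moved. The methods give an average number of reads per sample but no depth for each library. Low genes such as Prg4 and Slc4a10 therefore carry an unknown counting error.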
